A study of Mus musculus with 8 samples.

Results

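The comparison set C2, a CD34bright population of mouse bone marrow progenitors, against C18, a CD34dim CD48dim population, by their open chromatin. Its members were the libraries titled C2 and C18, which are 4 of the 8 libraries of the series, with 2 libraries of each population; the others came from the populations titled C13 and C10. The series description names the populations C10, C11, C17 and C3 instead, so each library is taken here by its title and its surface phenotype. Cells of both populations were KIT+, CD41+ and CD9+ and lacked CD16/32, so that the sort separated them by CD34 and, for C18, by a gate on dim CD48 that the C2 label does not carry. All came from wild-type C57BL/6 mice as primary bone marrow, and each library was made from 40000 to 50000 cells with the transposase TDE1 and digitonin. Nothing in the labels tells if 1 mouse or several gave rise to the pair of libraries of a population, so the p-values measure the spread within these pairs, whether biological or technical.

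ATAC-seq marks open chromatin, because the transposase inserts adapters where DNA is not wrapped in nucleosomes, and its peaks mark promoters and enhancers. CD34 is a surface sialomucin of early blood progenitors whose level falls as progenitors mature. CD41 (Itga2b) and CD9 are surface proteins of megakaryocytes and platelets that are also carried by some stem and early progenitor cells, and CD48 is a member of the SLAM family of receptors.

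The deposited data were peak lists. Each F-Seq list held 100000 peaks, so that a peak could be placed by its rank in its own list, with rank 1 for the highest signal. The 20000 strongest peaks had a median width of 1471 and 1450 bases in C2 replicates 1 and 2, against 966 and 1240 bases in C18 replicates 1 and 2. They covered 33.2 and 32.5 Mb in C2, against 21.9 and 28.0 Mb in C18, and 38.8% and 39.1% of them lay within 1 kb of a gene start in C2, against 39.1% and 40.2% in C18. C2 peaks were therefore wider but no more often at gene starts. The Jaccard index of the bases under the 20000 strongest peaks, the shared bases divided by the bases under either list, was 0.643 between the C2 libraries and 0.508 between the C18 libraries, and lay between 0.460 and 0.492 for the 4 pairs of a C2 and a C18 library. Over all 100000 peaks this index was 0.561 between the C2 libraries, 0.390 between the C18 libraries and 0.389 to 0.423 for the mixed pairs. By the full lists, the C18 libraries were thus about as alike as a C2 and a C18 library. Depth is unknown, because peak lists carry no read counts.

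Each protein-coding gene was read by the rank of the strongest F-Seq peak in its body or within 10 kb of it, turned into a rank score on which a difference of 1 means that the rank number differs by a factor of 2. Differences are C2 minus C18, so a positive value means a stronger peak in C2, and a locus was called when limma's adjusted p was under 0.05. Of 13611 loci tested, 770 (5.66%) were called higher and 1064 (7.82%) lower in C2, and the median difference of all loci was -0.15. When each library was centred on its median, the calls were 1059 higher (7.78%) and 644 lower (4.73%), so the balance of directions rests on the scaling. Without centring, 1678 of the 13611 loci were higher and 2542 lower at an unadjusted p under 0.05. The ranks of the populations did not overlap at 24.5% of loci in the higher direction and at 35.7% in the lower direction. The number of calls also depended on single libraries: 150, 484 and 1174 loci were called higher without C2 replicate 1, C2 replicate 2 and C18 replicate 1, and 163 and 592 were called lower without C2 replicate 1 and C2 replicate 2. HOMER, a second peak caller, gave 625 higher (5.44%) and 1443 lower (12.5%) of 11499 loci by its 70000 strongest peaks. Of the 1834 called F-Seq loci, 1643 were also tested in HOMER, and 98.97% of these had the same sign. The rest, most of the 10 lower loci with the smallest p among them, were too weak in HOMER to be compared. Both callers read the same libraries.

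Among the genes used for the sort, the Cd34 locus was the 1 that was called, and it was higher in C2. Its best peak ranked 1883 and 1771 in C2 replicates 1 and 2, against 9181 and 11989 in C18 replicates 1 and 2, a difference of 2.52 ± 0.37 (SE, 2 libraries each; limma adjusted p = 0.000424). In bulk libraries, fewer cells with an open site and a less open site in each cell cannot be told apart. The populations did not overlap, and HOMER gave a difference of 2.61 (limma adjusted p = 4.30e-05). In all, 5 peak regions lay in or within 10 kb of Cd34 (chr1:194938821-194961292, mm10), and 3 of them were called higher in C2. The region over the gene start (chr1:194937929-194940283) ranked 2431 and 2186 in C2, against 13989 and 11989 in C18. A region 4500 bases inside the gene body (chr1:194942349-194944294) ranked 2452 and 1771 in C2, against 17816 and 20735 in C18, and differed by 3.21 ± 0.40 (limma adjusted p = 2.08e-05). Another called region, upstream of the gene (chr1:194925414-194929043), ranked 1883 and 2080 in C2, against 6965 and 16999 in C18. The higher rank of Cd34 thus did not come from a single peak, and its call held without each library in turn.

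The Cd34 promoter is shown because the gene-start peak over it separated the populations. It is given from RefSeq for GRCm38.p6 (mm10) as the 250 bases before the start (chr1:194938571-194938820, plus strand), 5′ to 3′. Capitals in this and the promoters printed further on mark matches on either strand. AGATAA stands for the binding letters of GATA factors and occurs in 9.12% of all 17492 promoters, TGTGGT for RUNX in 12.5%, CCGGAAG for ETS factors in 9.13%, CCACCC for KLF factors in 29.6%, and the CCAAT box in 36.3%. The Cd34 window held none of them, which says only that these letters are not in it.
Cd34: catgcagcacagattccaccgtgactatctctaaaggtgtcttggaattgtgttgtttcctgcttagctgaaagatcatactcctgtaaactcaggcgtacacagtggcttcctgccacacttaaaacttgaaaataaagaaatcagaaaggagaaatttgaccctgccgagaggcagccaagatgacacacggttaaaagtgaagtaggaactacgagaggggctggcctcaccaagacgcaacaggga

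None of the other tested surface markers was called. Kit, the receptor for stem cell factor, ranked 4803 and 4056 in C2, against 4254 and 5788 in C18, a difference of 0.17 ± 0.37 (limma adjusted p = 0.791). Itga2b, the gene of CD41, ranked 13288 and 9733 in C2, against 9259 and 6243 in C18, and its difference of -0.58 ± 0.37 missed the threshold (limma adjusted p = 0.291); its gene-start peak alone gave a difference of 0.93, in the other direction (limma adjusted p = 0.128). Cd9 differed by 0.21, Fcgr3 by 0.15 and Fcgr2b, which with Fcgr3 encodes CD16/32, by 0.75, and none of them was called. Cd48 was not tested, because its best peak was among the 20000 strongest in 1 library: it ranked 27143 and 24306 in C2, against 24797 and 15746 in C18.

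Of the 10 loci higher in C2 with the smallest p, 8 were also called higher by HOMER. The locus of Tespa1, an adaptor of T cell receptor signalling in thymocytes, ranked 322 and 660 in C2, against 5957 and 6596 in C18, a difference of 3.77 ± 0.45 (limma adjusted p = 4.04e-05). The locus of Zswim2, a zinc finger protein, ranked 1405 and 1860 in C2, against 18067 and 22688 in C18, a difference of 3.65 ± 0.36 (limma adjusted p = 4.89e-06). A peak beside Trpa1, an irritant-sensing cation channel, ranked 3001 and 3853 in C2 and 38683 in C18 replicate 1, and C18 replicate 2 had no peak of any rank there. The populations did not overlap at any of the 3 loci. For Trpa1 this was fixed by the filter, because it entered the test only through its C2 ranks, as did Gm12248 of these 10. Siglech, a lectin of plasmacytoid dendritic cells, Ptger2, a receptor for prostaglandin E2, Arhgap10, a GTPase-activating protein, Txndc2 and Ttc21b differed by 2.68 to 3.54. Ccdc39 and Gm12248 made up the 10; HOMER gave Ccdc39 a difference of 1.04 (limma adjusted p = 0.127) and Gm12248, which was too weak there to be tested, one of 0.07. Their strong peak was cut by the edge of the 10 kb flank, which reached the C2 peak but not the C18 peak. Over the whole peak region at the Ccdc39 locus the ranks were 169 and 207 in C2, against 558 and 1073 in C18, with a difference of 2.05 in place of 6.55, and at Gm12248 they were 3053 and 2860 in C2, against 3908 and 2770 in C18, with a difference of 0.16 in place of 4.12.

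The 10 loci lower in C2 with the smallest p ranked 4766 to 85788 in the C2 libraries, against 3 to 1036 in the C18 libraries. All but Ncoa1, Prl5a1 and Nf1 entered the test only through their C18 ranks. HOMER called none of the 10: Nf1, a regulator of Ras, was tested there (-1.09, limma adjusted p = 0.113), and the others had too few strong HOMER peaks to be tested. The locus of Ncoa1, a nuclear receptor coactivator, ranked 12466 and 4766 in C2, against 3 and 3 in C18, a difference of -11.33 ± 0.60 (limma adjusted p = 1.19e-09). Prl5a1, a prolactin family gene, ranked 20730 and 8304 in C2, against 8 and 8 in C18. In HOMER their differences were -0.62 and 0.67, and no HOMER peak overlapped the C18 peak of either gene in either C18 library. The same held for 9 of the 10 loci, the others being Stac, Olfr27, Cnga2, Nf1, Tafa5, Iqcm and Gpr75, with differences of -5.72 to -8.29. The exception was Lep, the gene of leptin, with a difference of -7.84, whose peak overlapped a HOMER peak in C18 replicate 2. Among all 1064 lower loci, 76 had a best C18 peak without a HOMER peak in both C18 libraries, against 0 of the 770 higher loci for the C2 libraries. The full HOMER lists held 72379 and 83548 peaks in C18 replicates 1 and 2, against 171712 and 196264 in C2 replicates 1 and 2. A C18 peak thus had fewer HOMER peaks to overlap, and the part of list length in these counts was not tested. When F-Seq peaks without a HOMER peak were left out, Ncoa1 was higher in C2 by 1.75 (limma adjusted p = 0.0236). The C18 peaks at these 9 loci thus rest on F-Seq alone, and the source of the disagreement between callers was not tested. Without either C18 library, 3 of the 10 loci could be tested, and these stayed called.

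**Figure D1:**
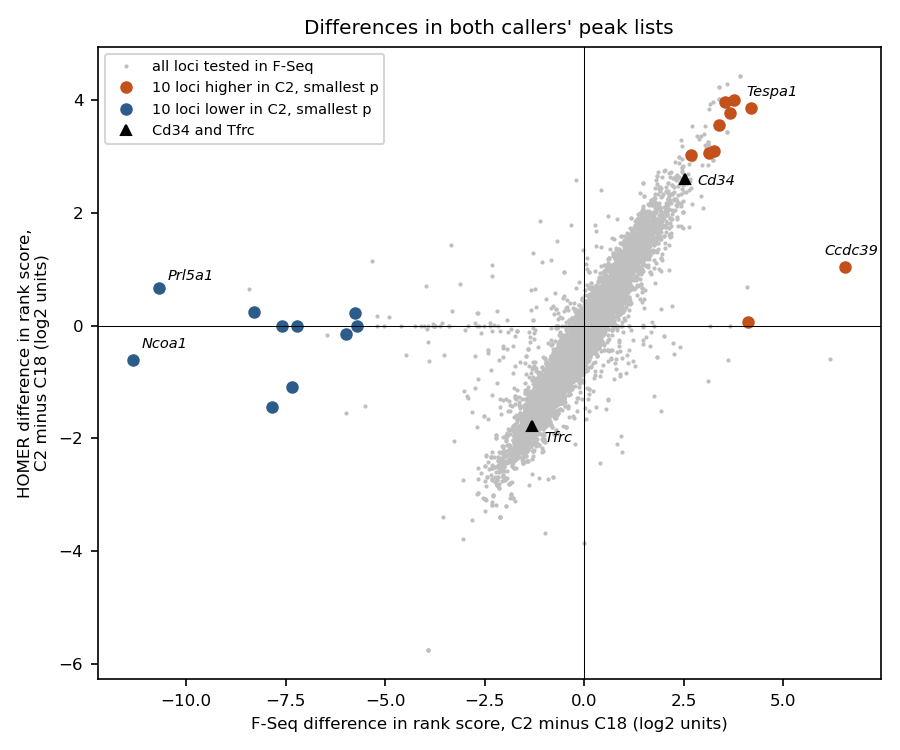
Difference in rank score between C2 and C18 for each locus in the F-Seq lists (x axis, log2 units) and in the HOMER lists (y axis, log2 units). Most loci, Cd34 and Tfrc among them, lie along a rising band, whereas the 10 lower loci with the smallest p lie far to the left at HOMER differences between -1.44 and 0.67.

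Loci lower in C2 in both callers were therefore ranked separately, a choice made after these values were seen. A gene-start peak of Wipi1, a phosphoinositide-binding protein of autophagy, ranked 2236 and 1571 in C2, against 120 and 212 in C18, a difference of -3.55 ± 0.50 (limma adjusted p = 0.000314) and of -3.39 in HOMER. Arf2, a small GTPase of vesicle traffic, ranked 3633 and 2747 in C2, against 371 and 399 in C18, a difference of -3.04 ± 0.44 (limma adjusted p = 0.000424). A peak at the start of Opn3 (chr1:175691534-175694462) was counted for the neighbouring loci Chml and Wdr64 and ranked 228 and 127 in C2, against 9 and 14 in C18. In all, 522 of the higher and 852 of the lower loci were called in both callers with the same sign.

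Regions told which peaks carried these differences. The merged union of the 20000 strongest peaks of the 4 libraries made 29081 regions, of which 12251 were held by all 4 libraries. Of all regions, 1691 (5.81%) were called higher and 1390 (4.78%) lower in C2. Gene starts lay within 1 kb of 22.2% of the regions called higher in C2 and of 36.0% of those called lower, against 31.6% of all regions. Both C2 libraries and no C18 library held 2110 regions, and both C18 libraries and no C2 library held 1458. Of the C2 set 23 had no C18 peak of any rank, and of the C18 set 185 had no C2 peak of any rank, so most regions held by 1 population were weaker in the other and not absent from it. Region calls depended on single libraries. The number called higher fell sharply whichever of the 4 libraries was left out. The number called lower fell sharply without C2 replicate 1 or C2 replicate 2, but changed much less without C18 replicate 1 or C18 replicate 2.

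The 5 regions higher in C2 with the smallest p included the peaks at Zswim2, Trpa1 and Tespa1 and 2 others, in the body of Slc24a3, a potassium-dependent sodium-calcium exchanger (chr2:145188489-145189733), and upstream of Ssr3, outside gene bodies (chr3:65417856-65419168). The Slc24a3 region ranked 2293 and 2213 in C2, against 31973 and 22418 in C18. The 5 regions lower in C2 with the smallest p ranked 9 to 84 in the C18 libraries and 13428 to 47933 in the C2 libraries, and none held a HOMER peak in either C18 library. Of the 797 regions among the 1000 strongest of both C18 libraries, 55 held no HOMER peak in either C18 library, against 11 of the 802 such regions of C2. Here too the C18 HOMER lists were the shorter ones. These 55 regions had a median width of 639 bases, against 2656 bases for the other C18 regions of the set, none lay within 1 kb of a gene start, and 47 of them were called lower in C2. Among regions called lower in both callers, a choice made after the values were seen, those with the smallest p included one upstream of the start of Mki67 (chr7:135721341-135722664) and one in the body of Camk2g (chr14:20766749-20767378).

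Genes of stem and multipotent cells were called higher in C2 at a larger share than all loci by F-Seq, while the share by HOMER was close to that of all its loci. Of 26 tested loci, 7 (26.9%) were called higher, against 5.66% of all loci, and 2 (7.69%) were called lower, against 7.82% of all loci. Their median difference was 0.32, against -0.15 for all loci, and it was positive in every setting on the log2 scale but the 20000 strongest HOMER peaks, where it was -6.9e-05. HOMER called 2 of 24 tested members higher, against 5.44% of all its loci, and 1 lower, against 12.5%. Gata3, a zinc finger transcription factor of stem cells and T cells, ranked 868 and 972 in C2, against 4284 and 5748 in C18, a difference of 2.43 ± 0.41 (limma adjusted p = 0.00153). Sox4, a transcription factor of progenitors and B cell precursors, ranked 694 and 1146 in C2, against 3704 and 4051 in C18, a difference of 2.12 ± 0.43 (limma adjusted p = 0.00525). The populations did not overlap at Gata3 or Sox4, the peaks lay at the gene start, and both were called by HOMER too, at 2.13 and 2.17. The Sox4 promoter (chr13:28953700-28953949, minus strand), shown as a gene-start peak stronger in C2, held 4 CCAAT matches.
Sox4: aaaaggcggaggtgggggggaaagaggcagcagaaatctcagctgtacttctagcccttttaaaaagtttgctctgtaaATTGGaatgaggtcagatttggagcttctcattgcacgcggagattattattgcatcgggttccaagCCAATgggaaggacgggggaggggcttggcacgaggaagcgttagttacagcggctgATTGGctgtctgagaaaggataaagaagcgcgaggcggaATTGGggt

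The other members called higher differed by 1.14 to 1.32. Flt3, the receptor kinase that marks multipotent progenitors, ranked 5548 and 3921 in C2, against 9054 and 12513 in C18, and all 6 of its regions had a positive difference. Hoxa9 and Hoxa10, homeobox genes of early progenitors, shared 1 peak and were both called through it. Robo4, a receptor on stem cells and endothelium, took its best peak from the body of the neighbouring Robo3. Esam, a junction molecule of stem cells and endothelium, was called through a peak cut by the edge of its flank: over whole regions its difference was 0.39 (limma adjusted p = 0.499), although a region in its own body was called higher in C2 by 1.32. The members called lower were Msi2, an RNA-binding protein, which ranked 13738 and 11742 in C2, against 99 and 211 in C18, and differed by -0.17 in HOMER, and Prdm16, a zinc finger factor, which ranked 16091 and 15045 in C2, against 9050 and 3779 in C18. The 17 members not called included Meis1, Mecom and Tal1, whose ranks did not overlap and which differed by 0.83 to 1.10; with each peak given to its nearest gene start alone Meis1 gave -8.05. Without C2 replicate 1, Gata3 and Msi2 alone kept their call and the others had adjusted p values of 0.0671 to 0.375. Without C2 replicate 2, Gata3, Sox4 and Msi2 kept it, and without C18 replicate 2, Robo4, Prdm16 and Flt3 lost it (limma adjusted p = 0.107 to 0.175).

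Lymphocyte and mast cell genes included further loci higher in C2. Of 12 tested lymphocyte loci, 4 (33.3%) were called higher and 0 lower in F-Seq by limma (1 at an unadjusted p under 0.05), against 5.66% and 7.82% of all loci. HOMER called 4 higher and 1 lower of 9, against 5.44% and 12.5% of all its loci. Gata3 is also in this list. Lef1, a transcription factor of lymphoid precursors, ranked 1659 and 1387 in C2, against 7460 and 5921 in C18, a difference of 2.13 ± 0.39 (limma adjusted p = 0.00243) from a peak 52292 bases inside the gene. Rag1 and Rag2, the recombinase genes of lymphocyte precursors, lie side by side and shared 1 peak (chr2:101627117-101629505), which ranked 729 and 1332 in C2, against 3056 and 3377 in C18; it lost its call without C2 replicate 1 (limma adjusted p = 0.222). The peak shared by Rag1 and Rag2 lay within 1 kb of the start of another gene, and not of the Rag1 or Rag2 start. The list's median difference was 0.59, but it was -0.00024 in HOMER. Of 8 tested loci of mast cells, basophils and eosinophils, 2 (25%) were called higher and 0 lower by limma, against 5.66% and 7.82% of all loci, with 3 and 0 at an unadjusted p under 0.05. HOMER called 2 higher and 0 lower of 4 tested. Cpa3, the mast cell carboxypeptidase, ranked 8426 and 7190 in C2, against 34464 and 30639 in C18, a difference of 2.06 ± 0.38 (limma adjusted p = 0.00248). It was carried by a region just upstream of the gene (chr3:20243520-20244673) in which no C18 library had a peak of any rank. Cpa3 entered the test only through its C2 ranks. Prg2, the eosinophil major basic protein, was higher by 1.17 through a peak at the start of the neighbouring Prg3 and lost its call without C2 replicate 1 (limma adjusted p = 0.355) and without C2 replicate 2 (limma adjusted p = 0.159), and Cpa3 could not be tested in either setting. The part of lymphocyte, mast cell and stem cell loci in each other's direction was not tested.

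Erythroid genes went the other way. Of 30 tested loci, 8 (26.7%) were called lower in C2, against 7.82% of all loci, and 1 (3.33%) was called higher, against 5.66% of all loci. The median difference was -0.64, and it stayed negative in all 23 settings on the log2 scale, between -1.20 and -0.23. The housekeeping genes had a median of -0.53 and the cell cycle genes of -0.45, both also negative in all 23 settings, so genes of other functions had medians on the same side, and their part in the erythroid median was not tested.

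Slc4a1, the band 3 anion exchanger, ranked 51265 and 62145 in C2, against 16841 and 6692 in C18, a difference of -2.41 ± 0.47 (limma adjusted p = 0.00446). Its C18 peak (chr11:102375031-102376263 in replicate 1) lay outside the gene body (chr11:102348820-102365281), at the edge of the flank and within 1 kb of another gene's start. The C2 replicate 2 rank came from a different peak, on the other side of the gene. Both of the 2 regions of the locus were called lower. Alas2, the first enzyme of erythroid haem synthesis, ranked 41924 and 54309 in C2, against 15601 and 8607 in C18. Hbb-bs, an adult beta globin, ranked 30556 and 43779 in C2, against 15876 and 5089 in C18, where its peak lay on the gene start; it has a close copy, Hbb-bt, and the placing of reads shared by such copies is not stated in the labels. Tfrc, the transferrin receptor, Tmod1, which caps actin filaments, and Tspan33, a tetraspanin, were lower by 1.32 to 1.70 in rank score. Ank1, the ankyrin that anchors the skeleton, was the member called higher, at 1.11, but of its 5 regions none was called higher on its own, 3 had a negative difference and 1 was called lower (chr8:23053382-23054829, -2.59, limma adjusted p = 0.0198). In all 8 lower loci the peak of C18 replicate 2 was stronger than that of C18 replicate 1, so the C18 libraries were not equal for these genes. HOMER called 4 of 22 tested members lower, Tfrc and Tspan33 among them, and 0 higher, against 12.5% and 5.44% of all its loci. Hbb-bs, Alas2, Slc4a1 and Tmod1 had too few strong HOMER peaks to be tested, and in F-Seq they entered the test only through their C18 ranks. Klf1, an erythroid transcription factor singled out after its values were seen, ranked 3551 and 3779 in C2, against 2668 and 2468 in C18, and was not called. Without C2 replicate 1, Alas2, Ank1, Tfrc, Tmod1 and Tspan33 lost their call (limma adjusted p = 0.0716 to 0.247), and without C2 replicate 2, Hbb-bs, Alas2, Ank1 and Tfrc did (limma adjusted p = 0.0608 to 0.132). Without C18 replicate 1, Ank1 lost it (limma adjusted p = 0.0891), and without C18 replicate 2, Tfrc and Tspan33 did (limma adjusted p = 0.0576 to 0.174); in each of these settings 3 of the 7 loci described here could be tested.

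The promoters of Tfrc (chr16:32608646-32608895, plus strand) and Hbb-bs (chr7:103827929-103828178, minus strand) are shown as gene-start peaks stronger in C18. The Tfrc window held a CCAAT match and 25 CpG pairs. The Hbb-bs window held a GATA match at base 210 before the start, a CCAAT match at base 76 and 2 CpG pairs, so these erythroid promoters were unlike in base composition.
Tfrc: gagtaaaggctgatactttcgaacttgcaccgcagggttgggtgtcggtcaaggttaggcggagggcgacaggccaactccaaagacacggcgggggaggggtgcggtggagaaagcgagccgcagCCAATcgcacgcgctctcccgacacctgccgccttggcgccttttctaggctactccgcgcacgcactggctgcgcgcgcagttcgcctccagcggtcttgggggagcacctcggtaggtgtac
Hbb-bs: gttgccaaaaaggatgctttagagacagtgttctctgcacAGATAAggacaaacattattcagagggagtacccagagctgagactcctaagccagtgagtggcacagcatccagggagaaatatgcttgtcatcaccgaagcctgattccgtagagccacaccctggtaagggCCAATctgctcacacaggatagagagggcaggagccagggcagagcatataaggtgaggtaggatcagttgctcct

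**Figure D2:**
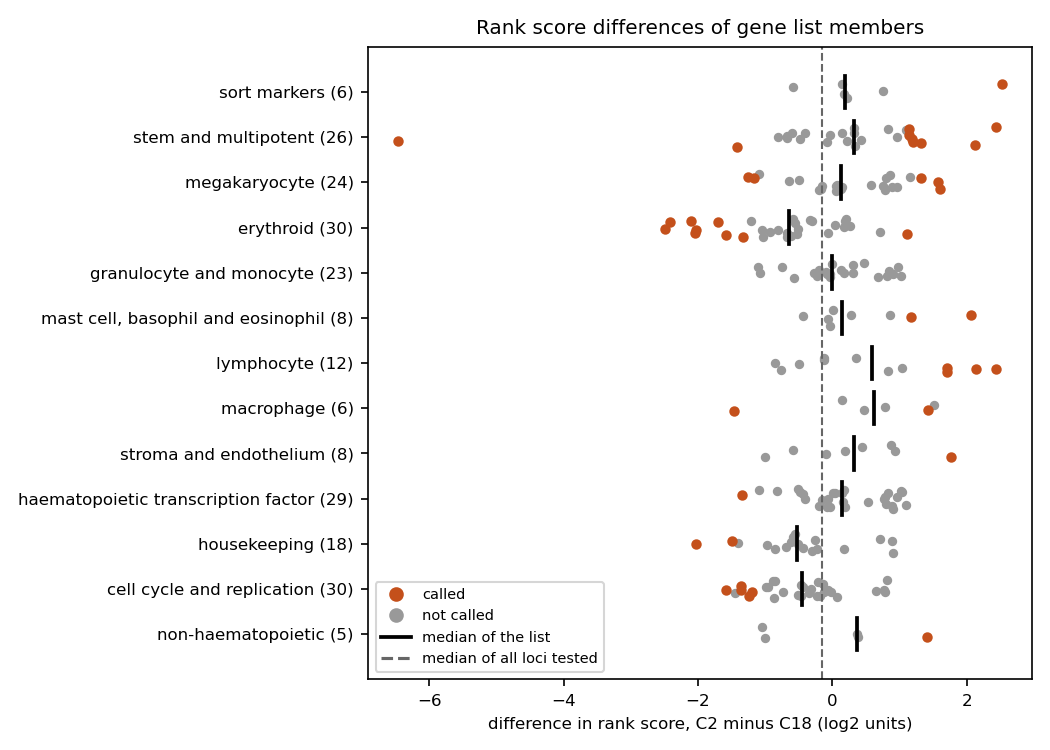
Difference in rank score between C2 and C18 (x axis, log2 units) for each tested member of 13 gene lists, with the number tested in brackets, called members in orange, the list median as a black bar and the median of all loci as a dashed line. The erythroid, housekeeping and cell cycle medians lie left of the dashed line at -0.64, -0.53 and -0.45, and the stem and lymphocyte medians lie right of it at 0.32 and 0.59.

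Of the proliferation and housekeeping loci, those called were lower in C2. Of 30 cell cycle and replication loci, 5 (16.7%) were called lower and 0 higher by limma, against 7.82% and 5.66% of all loci. At an unadjusted p under 0.05 the counts were 11 lower and 1 higher, against 2542 and 1678 of all 13611 loci. HOMER called 6 of 30 lower and 0 higher, against 12.5% and 5.44% of all its loci. Mki67, the proliferation antigen Ki-67, ranked 12338 and 8224 in C2, against 3711 and 3055 in C18, a difference of -1.58 ± 0.37 (limma adjusted p = 0.0115). Both its gene-start region and the region upstream of it were called lower, although with a flank of 50 kb the locus gave 0.66. Top2a, a topoisomerase of dividing cells, Ccne1, a cyclin of entry into S phase, Mcm7, a subunit of the replicative helicase, and Cdc6, which loads that helicase, were lower by 1.19 to 1.36. Of 18 housekeeping loci, 2 (11.1%) were called lower and 0 higher by limma (4 and 1 at an unadjusted p under 0.05), near the 7.82% of all loci that were lower, and HOMER called the same counts. Rplp0, a ribosomal stalk protein, and Polr2a, the large subunit of RNA polymerase II, were the called housekeeping genes; Rplp0 ranked 4655 and 3332 in C2, against 645 and 1450 in C18, and Polr2a 8264 and 9706 in C2, against 3044 and 3309 in C18, and Gapdh differed by 0.71 in the opposite direction without being called. With only peaks over 1 kb from gene starts, by which 3.62% of all loci were called higher and 3.37% lower, the medians were -0.44 for erythroid, -0.30 for housekeeping and -0.14 for cell cycle genes, against 0.04 for all loci, and gene-start peaks gave -1.20, -0.32 and -0.62, against -0.20. Without C2 replicate 1, all 5 cell cycle genes and both housekeeping genes lost their call (limma adjusted p = 0.0677 to 0.396), and without C2 replicate 2, Mki67 and Rplp0 alone kept it. Cdc6 and Top2a lost it without C18 replicate 1 (limma adjusted p = 0.0541 to 0.0595), and Cdc6 without C18 replicate 2 (limma adjusted p = 0.0603).

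Megakaryocyte genes had calls in both directions. Of 24 tested loci, 3 (12.5%) were called higher and 2 (8.33%) lower in C2, against 5.66% and 7.82% of all loci, and the median difference was 0.14. Plek, the platelet protein kinase C substrate pleckstrin, ranked 982 and 1218 in C2, against 2745 and 4056 in C18, a difference of 1.61 ± 0.42 (limma adjusted p = 0.0196), and 3 of its 8 regions were called higher. P2ry12, the platelet ADP receptor, ranked 3826 and 7088 in C2, against 11167 and 21568 in C18, and the chemokine receptor Cxcr2 ranked 11745 and 14884 in C2, against 35455 and 30490 in C18. Gp1ba and Gp9, subunits of the platelet receptor for von Willebrand factor, were lower by 1.25 and 1.16. Gp1ba ranked 10449 and 11682 in C2, against 4297 and 5016 in C18, by a peak at the start of the neighbouring Rnf167, and the region at its own start differed by -0.58 (limma adjusted p = 0.386). Of 16 members tested in HOMER, Gp1ba and Gp9 were called lower and P2ry12 higher, against 12.5% lower and 5.44% higher of all its loci. Without C2 replicate 1 the 4 members still tested lost their call (limma adjusted p = 0.142 to 0.375), without C2 replicate 2 Gp1ba and Gp9 did (limma adjusted p = 0.102 to 0.119), and without C18 replicate 2 Gp9, Plek and P2ry12 did (limma adjusted p = 0.0513 to 0.0916). Cxcr2 entered the test only through its C2 ranks and could not be tested without either C2 library.

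Among 29 tested loci of haematopoietic transcription factors, limma called Zfpm1 lower and 0 higher, with 3 lower and 7 higher at an unadjusted p under 0.05. The adjusted calls were no more than among all loci, of which 7.82% were called lower and 5.66% higher. At an unadjusted p under 0.05, 2542 of all 13611 loci were lower and 1678 higher. By that count the transcription factors had a larger share higher and a smaller share lower than all loci. HOMER called 0 of 26 tested members higher and 1 lower, against 5.44% and 12.5% of all its loci. The list's median difference was 0.15 in F-Seq and -0.16 in HOMER, against -0.15 and -0.34 for all loci. In F-Seq it was -0.0043 without C2 replicate 2. Zfpm1, also known as FOG1, is the cofactor through which GATA1 acts in erythroid cells and megakaryocytes. It ranked 3348 and 2442 in C2, against 1334 and 944 in C18, a difference of -1.35 ± 0.43 (limma adjusted p = 0.0438) and of -1.74 in HOMER. All 7 of its regions had a negative difference and 3 were called lower. The region 39846 bases inside the gene (chr8:122320670-122323305) ranked 28574 and 16195 in C2, against 7928 and 2550 in C18, a difference of -2.26 (limma adjusted p = 0.00644). Zfpm1 lost its call without C2 replicate 1, C2 replicate 2 and C18 replicate 2 (limma adjusted p = 0.341, 0.0796 and 0.142). Its promoter (chr8:122281891-122282140, plus strand) held 2 KLF matches and 28 CpG pairs.
Zfpm1: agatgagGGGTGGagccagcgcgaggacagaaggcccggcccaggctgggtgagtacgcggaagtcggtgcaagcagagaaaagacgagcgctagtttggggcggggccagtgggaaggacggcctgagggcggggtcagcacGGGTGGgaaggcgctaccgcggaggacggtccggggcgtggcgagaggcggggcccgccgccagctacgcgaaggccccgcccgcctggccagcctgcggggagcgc
Cebpa, Ikzf1, Meis1 and Nfe2 had ranks that did not overlap and were not called, with Nfe2 at -1.09 and the others at 1.02 to 1.10.

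**Figure D3:**
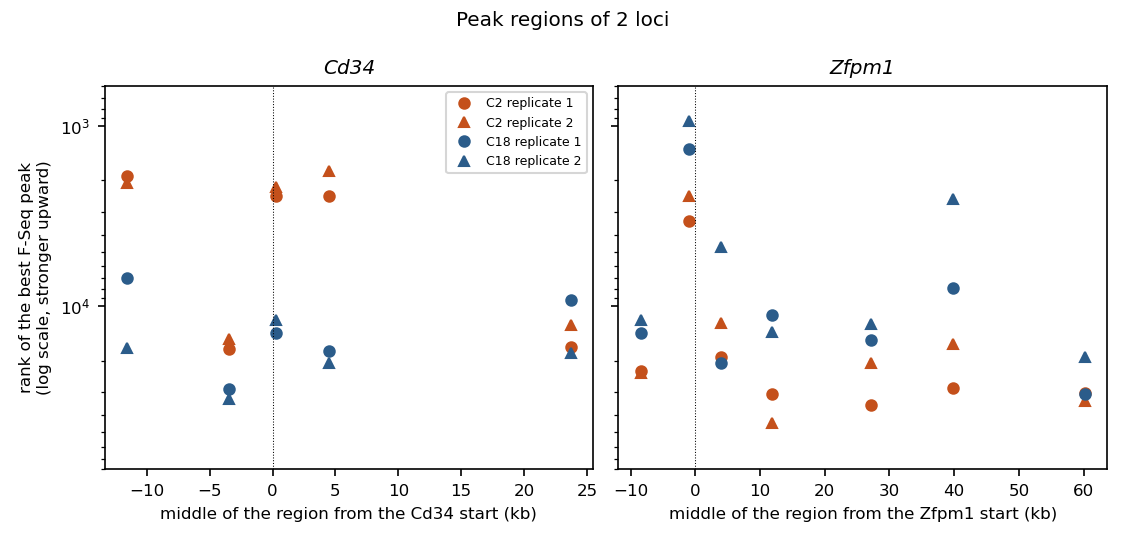
Rank of the best F-Seq peak (y axis, log scale, stronger peaks upward) in each peak region of the Cd34 locus and the Zfpm1 locus, by the distance of the region's middle from the gene start (x axis, kb), with 1 point per library. C2 points lie above C18 points at the Cd34 start, upstream of it and 4500 bases inside it, and C18 points lie above C2 points at the Zfpm1 start and 39846 bases inside it.

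Granulocyte and monocyte genes showed no called difference. Of 23 tested loci limma called 0 in either direction in F-Seq, against 5.66% higher and 7.82% lower of all loci. At an unadjusted p under 0.05, 3 were higher and 2 lower, against 1678 and 2542 of all 13611 loci. Differences lay between -1.11 and 1.02. Of 11 members tested in HOMER, Fcnb, a ficolin of granulocytes, was called lower in C2 (-1.52, limma adjusted p = 0.0201), against 12.5% of all its loci. Of 6 tested macrophage loci, 1 was called in each direction, the scavenger receptor Marco higher by 1.43 and Cd68 lower by 1.47. The Cd68 call came from a peak at the start of the neighbouring Eif4a1, while the region at its own start differed by -0.0065 (limma adjusted p = 0.994). Cd68 lost its call without C2 replicate 1, C2 replicate 2 and C18 replicate 2 (limma adjusted p = 0.307, 0.096 and 0.2). Pdgfrb, a growth factor receptor of stromal cells, was higher by 1.76 among 8 stromal and endothelial loci but not without C2 replicate 1 (limma adjusted p = 0.196), and Neurod1, a neural transcription factor, was higher by 1.41 among 5 tested loci of genes not active in blood. Marco and Neurod1 entered the test only through their C2 ranks and could not be tested without either C2 library. These counts of 1 stand beside background rates of 5.66% and 7.82% and say little about the lists.

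Promoters differed in base composition. Genes with a gene-start peak called higher in C2 (419 of 8050 tested, 5.2%) had a median G+C content of 55.6% and 11 CpG pairs in the 250 bases before the start, against 63.2% and 19 CpG pairs in genes called lower (669, 8.31%) and 59.6% and 16 CpG pairs in all genes tested at their start. A GATA motif, searched as AGATAA on both strands, was found in 9.31% of promoters of higher genes, 4.33% of lower genes, 5.59% of tested genes and 9.12% of all 17492 promoters. An ETS motif, searched as CCGGAAG on both strands, was found in 9.79% of higher, 17.0% of lower and 15.7% of tested genes, and a RUNX motif, searched as TGTGGT, in 14.6%, 7.92% and 10.5%. Motif shares and base composition moved together with the direction of the call, and their parts were not separated. KLF letters (CCACCC) were found in 31.3% of higher, 33.8% of lower and 31.6% of tested genes, the CCAAT box in 43.9%, 46.8% and 39.8%, and the E-box CAGNTG in 39.9%, 29.9% and 35.9%. Both strands were searched for each motif, matches of separate motifs may share bases, and a match of letters shows no binding.

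**Figure D4:**
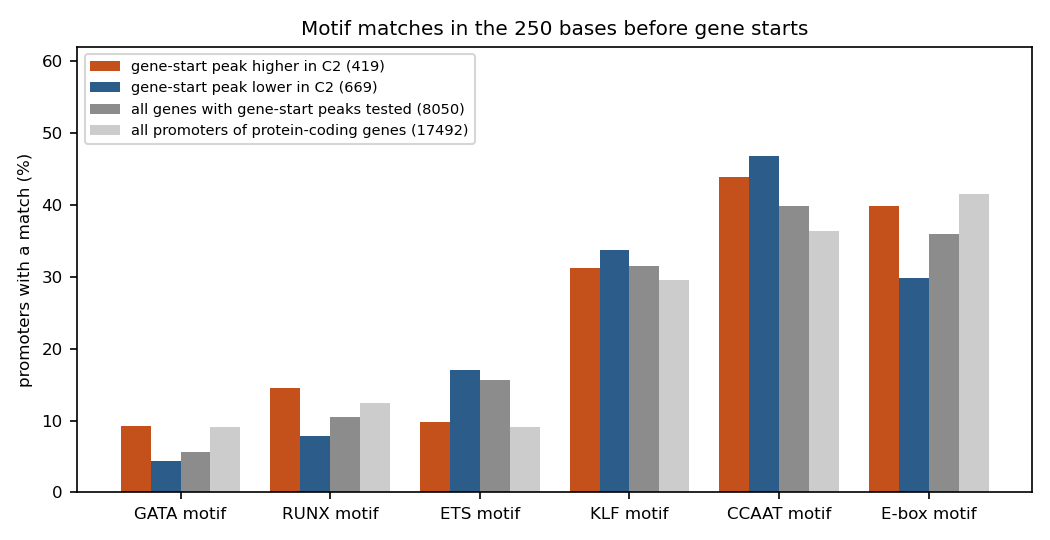
Share of promoters (y axis, %) with at least 1 match of each of 6 motifs in the 250 bases before the gene start, for genes with gene-start peaks higher in C2, lower in C2, all genes tested at their start and all protein-coding genes, with the number of genes in brackets. GATA and RUNX matches are more frequent in genes higher in C2, and ETS matches in genes lower in C2.

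Few microRNA loci were called. Of 374 hairpin loci tested with the same 10 kb flank, limma called 2 higher and 2 lower in C2 (0.535% each), against 88 with an unadjusted p under 0.05, and the median difference was -0.23. None of the 4 belongs to the 34 microRNAs listed for blood cells, of which 12 were tested and 0 called by limma, 6 with a positive and 6 with a negative difference. Mir155, a regulator of lymphocyte and myeloid responses, ranked 7099 and 9465 in C2, against 38396 and 91768 in C18, and its difference of 2.86 missed the threshold (limma adjusted p = 0.0625). Mir22 ranked 844 and 919 in C2, against 257 and 176 in C18, and its difference of -2.05 missed it too (limma adjusted p = 0.106). Mir144 and Mir451a, which are made from 1 transcript in erythroid cells, ranked 17106 and 15720 in C2, against 15895 and 10130 in C18.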

How the data were processed

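ATAC-seq peak lists of the C2 and C18 libraries were analysed. The submitters' processing notes name Bowtie 1.0.0, HOMER 1.0 and mm10. The F-Seq lists hold a signal value per peak, which the authors deposited for 100000 peaks of each library. The HOMER lists, as the authors deposited them, hold peaks 150 bases wide with a score in an unnamed column. The fourth column was taken as that score, and the fifth was tried as an alternative. The settings of either caller are not stated in the labels. Neither gives read counts, so no interval or detection limit was computed.

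Peaks were ranked by F-Seq signal, since signals of separate libraries share no stated scale. Each of 21887 protein-coding loci (RefSeq GRCm38.p6 body and 10 kb flanks) received log2 of 100001 divided by the rank of its best peak, with rank 100001 for none. Loci whose best peak was among the 20000 strongest in 2 or more of the 4 libraries entered a limma 3.58.1 fit under R 4.3.3, moderated with a trend, and were called at a Benjamini-Hochberg adjusted p under 0.05. A locus could thus enter the fit through the libraries of 1 population alone. Regions were the merged peaks (bedtools 2.31.1, overlap of at least 1 base). HOMER ranks went to 70000. Gene starts came from RefSeq's promoter table, which does not list every gene. An exact permutation test of 2 against 2 libraries cannot go below 0.333.

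The 10 loci and 5 regions of smallest p in each direction were named, as were called members of each gene list and up to 4 uncalled members whose ranks did not overlap and whose HOMER difference had the same sign. The comparison, lists and rules were chosen with earlier results of these data known. The test was checked on simulated data. Some loci that the rule names are not reported here.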

Additional observations from a re-analysis of the deposited data

How the results depend on the processing

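Counts of calls moved with the settings, and the causes were not tested. The number of loci higher in C2, 770 as reported, was 0 with the 20000 strongest HOMER peaks (992 at an unadjusted p under 0.05), 458 by HOMER's whole-number score, 273 with peaks over 1 kb from gene starts, 419 with gene-start peaks, 450 with all ranks beyond 20000 set equal, 23 on the linear rank scale, 1252 with a 50 kb flank, 90 with each peak given to its nearest start, 65 with any peak allowed, and 150 to 1174 without 1 library. The number lower, 1064 as reported, was 0 (2396 unadjusted) with the 20000 strongest HOMER peaks, 254 and 669 with peaks away from and at starts, 514 with equal ranks beyond 20000, 35 on the linear scale, 644 after centring, 2136 with 50 kb, 163 with nearest starts, 96 with any peak, 1750 with all 8 libraries in the fit, and 163 to 1574 without 1 library. Regions higher numbered 3874 with all 8 libraries, 563 with the 50000 strongest and 0 to 292 without 1 library, and regions lower 886 in HOMER, 2999, 772 and 46 to 1427. Regions held by C2 numbered 1127 with the 10000 strongest, 5107 with the 50000 strongest, 23 with no peak of any rank in C18 and 3145 to 3813 without 1 library, and those held by C18 numbered 855, 3327, 185 and 1844 to 4543; leaving out a library asks fewer libraries to agree.

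The replicate numbers pair nothing in the labels, and deviations of same-numbered libraries had a correlation of -0.0009 over loci and -0.029 over regions. With a replicate block the calls were 1025 higher and 1417 lower for loci, and 1989 and 1554 for regions.

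These loci changed sign. Kit gave -0.35 by HOMER's whole-number score, -0.51 with 50 kb, -0.48 with nearest starts and -0.053 to 0.39 without 1 library. Itga2b gave 0.93 with gene-start peaks, Cd9 -0.14 to 0.57 without 1 library, Fcgr2b -0.23 with nearest starts, and Fcgr3 -0.24 with 50 kb, -0.32 to 0.62 without 1 library. Nearest starts gave -0.085 for Hoxa9 (the same with gene-start peaks), -8.05 for Meis1, 0.66 for Mki67 (the same with 50 kb) and -0.17 for Tubb1 (the same without flank and away from starts). A 50 kb flank gave -0.69 for Tubb1, -0.49 for Tal1, -0.061 for Itgb3 and 0.40 for Prokr1. Peaks away from starts gave 0.065 for Cdc6, and HOMER-supported peaks gave 1.75 for Ncoa1. Whole peak regions, added after seeing the data with 2 HOMER settings, gave 905 higher and 1265 lower loci. Among 71 called loci chosen by the naming rule, 0 changed sign when 1 library was left out. Where the ranks of the populations do not overlap, leaving out 1 library cannot change the sign. The count of 0 is therefore no evidence of stability. Some of these 71 loci lost their call when 1 library was left out, and others could be tested in only 2 of the 4 settings.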
